A study of Arabidopsis thaliana and Ginkgo biloba and Brassica rapa with 14 samples.

Results

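The alanine and threonine tRNAs were followed here at the cytosines on the border of the variable loop and the T stem, structural positions C48 and C49. Members were all isodecoders whose name begins with Ala or Thr, in every genome of the plant cell and numbered variants included. This gave 10 of the 100 consensus isodecoders of the A. thaliana reference, 4 of alanine and 6 of threonine. An isodecoder is here 1 consensus sequence that stands for tRNA genes of the same anticodon. Of the 10 members, 7 were nuclear and 3 were chloroplast encoded.

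Methylation was measured by RBS-seq, in which RNA is treated with bisulfite before sequencing, so that unmodified cytosines are read as thymine and 5-methylcytosine (m5C) is still read as cytosine. The study calls such sites candidates, because some other modified cytosines also resist bisulfite. Methylated is used below in that sense. The plants were wild type in all groups, and tRNAs were enriched by gel purification. A. thaliana whole seedlings 10 days after germination gave 3 RBS-seq libraries and 1 RNA-seq library. The other 5 species gave 1 RBS-seq library each, from Brassica rapa and the gymnosperm Ginkgo biloba (leaf in the labels, shoot apexes in the study's methods), the flag leaf of durum wheat (Triticum durum), fronds of the multicellular alga Caulerpa taxifolia and cells of the single-celled alga Nannochloropsis oculata. The tissues therefore differed with the species, and a difference between species cannot be told apart from one between tissues. Each percent is 1 deposited number per site and species, for A. thaliana the authors' mean over biological replicates. How many replicates lie behind each mean is not given, and the depth behind each percent is unknown beyond a minimum of 5 reads. No replicate error could be computed, so that differences between percentages are given without a test.

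A tRNA folds into an acceptor stem that carries the amino acid, a D arm, an anticodon arm, a short variable loop and a T arm. C48 is the last base of the variable loop and C49 the first base of the T stem, where it pairs with base 65. In animals and yeast, methylation of these cytosines is the work of the NSUN2 or Trm4 family of RNA methyltransferases, and it is known to protect tRNAs from cleavage. Alanyl-tRNA synthetase recognises its tRNAs by a wobble pair of G and U in the acceptor stem, whereas threonyl-tRNA synthetase reads mainly the anticodon.

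The consensus sequences of the 7 nuclear members are shown because the base at 48 and 49 decides where a methylated cytosine can lie. Capitals mark positions 48 and 49, counted back from the last base of the consensus as position 73.
Ala(AGC): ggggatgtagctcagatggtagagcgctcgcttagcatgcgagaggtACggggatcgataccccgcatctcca
Ala(CGC): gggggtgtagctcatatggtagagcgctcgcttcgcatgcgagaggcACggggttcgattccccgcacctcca
Ala(TGC): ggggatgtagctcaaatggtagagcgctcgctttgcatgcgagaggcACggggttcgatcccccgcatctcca
Thr(AGT): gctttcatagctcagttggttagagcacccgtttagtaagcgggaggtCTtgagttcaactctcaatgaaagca
Thr(CGT): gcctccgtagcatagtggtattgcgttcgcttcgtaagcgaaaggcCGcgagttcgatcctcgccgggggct
Thr(CGT)1: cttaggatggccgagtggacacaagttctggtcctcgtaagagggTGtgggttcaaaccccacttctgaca
Thr(TGT): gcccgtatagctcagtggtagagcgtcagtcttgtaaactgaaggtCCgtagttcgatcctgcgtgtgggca

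The 3 chloroplast consensus sequences are shown for the same positions, where each has a cytosine at 48 and an adenine at 49.
Ala(TGC) chloroplast: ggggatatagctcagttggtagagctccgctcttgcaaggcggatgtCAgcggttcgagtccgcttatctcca
Thr(GGT) chloroplast: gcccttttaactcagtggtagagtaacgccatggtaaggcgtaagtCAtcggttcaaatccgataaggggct
Thr(TGT) chloroplast: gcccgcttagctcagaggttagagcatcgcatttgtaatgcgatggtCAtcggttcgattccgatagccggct

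The alanine and threonine tRNAs divided at this border. All 3 nuclear alanine sequences had a cytosine at 49 and an adenine at 48, so that C49 was the single candidate of the pair. The 4 nuclear threonine sequences differed from each other. Thr(AGT) and Thr(CGT) had a cytosine at 48 alone, Thr(TGT) had a cytosine at both positions, and Thr(CGT)1 had one at neither. Over all 100 isodecoders, 72 had a cytosine at 48, 30 had one at 49 and 12 had one at 49 without one at 48. The same base was reached in all 10 members when positions were placed from the T loop motif in place of the end of the sequence.

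The labels were checked against the sequences. Each of the 10 sequences held the anticodon of its name directly after a thymine, starting between bases 33 and 36. A guanine at position 3 opposite a thymine at position 70, the alanine pair as written in DNA letters, was found in all 4 alanine sequences, in none of the 6 threonine sequences and in none of the 90 others. The T stem had all 5 of its pairs in the 10 members, against 89 of 100 isodecoders in all. The acceptor stem had all 7 pairs in 8 members, and in Thr(CGT)1 and the chloroplast Thr(TGT) it had 6.

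Every nuclear value listed for these tRNAs was above the 20% at which the study calls a cytosine methylated. The methylation table held 59 sites, 51 of them nuclear, and 7 were sites of alanine or threonine tRNAs, all nuclear. These 7 sites in 6 species made 42 cells, of which 15 held a percent, 26 were given as not determined and 1 was ambiguous. All 15 percentages were at 20% or more, with a median of 76% and a range of 30.5 to 100%. Over all nuclear sites and species 89.9% of the 198 values reached 20%. Since each of the 59 listed sites reached 20% in at least 1 species, the table holds no site that stayed below it throughout, and the 15 of 15 cannot be read as a property of these tRNAs.

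Values were missing unevenly over the species. In A. thaliana 5 of the 7 sites had a percent, in C. taxifolia 4, in B. rapa and T. durum 2 each, and in N. oculata and G. biloba 1 each. The other 44 nuclear sites had a percent in 38 cases in A. thaliana, in 40 in B. rapa, in 38 in T. durum and in 20 in C. taxifolia. A percent was thus given for 28.6% of the alanine and threonine sites and 90.9% of the others in B. rapa, for 28.6% and 86.4% in T. durum, and for 57.1% and 45.5% in C. taxifolia. In N. oculata the shares were 14.3% and 43.2%, and in G. biloba 14.3% and 63.6%. A cell without a percent says nothing about the methylation of that tRNA.

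**Figure D1:**
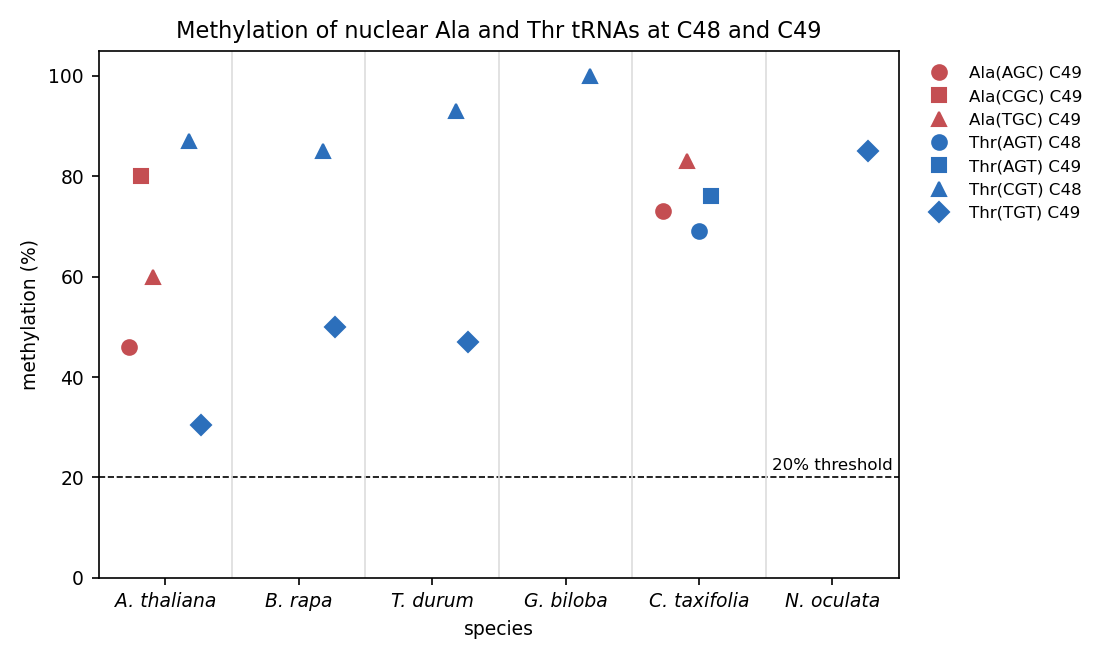
Methylation in percent (vertical axis) of each listed C48 or C49 site of the nuclear alanine (red) and threonine (blue) tRNAs in the 6 species (horizontal axis), 1 deposited value per symbol, with the 20% threshold as a dashed line. The values in A. thaliana run from 30.5% at C49 of Thr(TGT) to 87% at C48 of Thr(CGT), and all symbols lie above the threshold.

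C49 of the alanine tRNAs carried a value in A. thaliana and C. taxifolia alone. In A. thaliana the methylation level of C49 was 46% in tRNA Ala(AGC), which stands for the largest of the 3 nuclear alanine gene families, 60% in tRNA Ala(TGC) and 80% in tRNA Ala(CGC). The isodecoders of 1 amino acid therefore spanned 34 percentage points at the same structural position as listed, but the assignment of the values of Ala(TGC) and Ala(CGC) is uncertain, since their converted references share the last 58 bases. In C. taxifolia the level was 73% in tRNA Ala(AGC) and 83% in tRNA Ala(TGC), which is 27 and 23 points above the values in A. thaliana. The order of Ala(AGC) below Ala(TGC) was the same in both species. The C. taxifolia cell of tRNA Ala(CGC) was marked as ambiguous between a cytosine and a thymine, and its number, 0, was left out. In the remaining 4 species C49 of all 3 alanine tRNAs was not determined.

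tRNA Thr(TGT) was methylated at C49, and in A. thaliana it was the lowest of the 5 alanine and threonine sites with a value. The percent was 30.5% in A. thaliana, 47% in T. durum, 50% in B. rapa and 85% in N. oculata. The 3 flowering plants lay within 19.5 points of each other, and the alga lay 35 points above the highest of them. Counted from the lowest nuclear C49 value of each species, Thr(TGT) ranked 1 of 12 in B. rapa, 2 of 13 in T. durum, 2 of 15 in A. thaliana and 3 of 7 in N. oculata. The value in C. taxifolia and G. biloba was not determined. Thr(TGT) also has a cytosine at 48, for which the table has no entry. Of the 11 nuclear isodecoders with a cytosine at both positions in A. thaliana and a listed site, 9 had both listed, and the other with C49 alone was Val(CAC).

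tRNA Thr(CGT) was methylated at C48, to 85% or more in each of the 4 species with a value. The percent was 87% in A. thaliana, 85% in B. rapa, 93% in T. durum and 100% in G. biloba, a range of 15 points. C49 of Thr(TGT) ranged over 54.5 points in another set of species. In A. thaliana, B. rapa and T. durum, where both had a value, the ranges were 8 points for Thr(CGT), without G. biloba, and 19.5 points for Thr(TGT), without N. oculata. Counted from the highest nuclear C48 value of each species, Thr(CGT) ranked 1 of 13 in G. biloba, 3 of 17 in T. durum, 7 of 18 in A. thaliana and 7 of 19 in B. rapa. Where both threonine tRNAs had a percent, C48 of Thr(CGT) exceeded C49 of Thr(TGT) by 56.5 points in A. thaliana, by 35 in B. rapa and by 46 in T. durum. Thr(CGT) has a further cytosine at 50 in A. thaliana, for which no site is listed.

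tRNA Thr(AGT) was methylated in C. taxifolia, at both positions. The percent was 69% at C48 and 76% at C49. The A. thaliana consensus has a thymine at 49, and C48 was not determined in A. thaliana or in the other 4 species. In C. taxifolia 4 further tRNAs had a percent at both positions, named here because they share that feature. C48 and C49 stood at 24% and 75% in Asp(GTC), at 6% and 94% in Gln(TTG), at 0% and 64% in Glu(TTC) and at 0% and 46% in Gly(GCC). The gap between the positions was thus 7 points in Thr(AGT) and between 46 and 88 points in the others of this species. In other species some tRNAs had a smaller gap than Thr(AGT), as Gly(GCC) in T. durum and Gln(CTG) in G. biloba. Over all species, C49 exceeded C48 in 35 of the 42 cases of other nuclear tRNAs with both values, by a median of 22 points over the 42.

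Thr(CGT)1 has no cytosine at 48 or 49, and the 3 chloroplast tRNAs, each with a cytosine at 48, are not among the listed sites. All 10 consensus sequences have a cytosine at 72, the last position of the acceptor stem, opposite base 1. NSUN6 is known to methylate C72 in cytosolic threonine tRNAs of human cells. The table lists 1 site at position 72 and it belongs to another tRNA. A position that is not listed may have been below 20% in each species or may not have been determined. For chloroplast tRNAs of A. thaliana, the study reports that no m5C site was detected. C48 of Thr(TGT) adjoins a C49 with a percent in A. thaliana, so that most reads over C49 would also cover C48. The coverage of C48 itself is not given.

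In A. thaliana, C49 of these tRNAs lay in the lower part of the nuclear range. Of the 15 nuclear C49 values, Thr(TGT), Ala(AGC) and Ala(TGC) ranked 2, 3 and 4 from the lowest and Ala(CGC) ranked 7. The lowest was Gln(TTG), listed at 0%, and between the alanine tRNAs stood Val(CAC) at 61% and Arg(ACG) at 77.7%. The median was 53% over the 4 alanine and threonine sites and 93.7% over the 11 others, which ran up to 98% in Gln(CTG). The difference of medians was -40.7 points, the difference of means -26.8 points, and over tRNAs with 1 methylated site, a comparison chosen after seeing the data, the medians were 53% over 4 and 77.7% over 3 sites, a difference of -24.7 points. Without a replicate error it cannot be said which neighbours in this order differ beyond their spread, and Ala(TGC) and Val(CAC) were 1 point apart. The assignment of the values of Ala(TGC) and Ala(CGC) is also uncertain. Of the 42 A. thaliana values at all other listed sites, 27 were whole numbers and 13 had a fraction that a mean of 3 whole percentages can give. The other 2 had a fraction that such a mean cannot give. Of the 5 alanine and threonine values, 4 were whole numbers and 0 had a fraction that such a mean can give. The value of Thr(TGT) had a fraction that it cannot give. A whole number can also be a mean of 3 whole percentages, so that it does not show how many libraries lie behind it. Whether these tRNAs and the others rest on equal numbers of libraries was not tested. In C. taxifolia the order was not the same, with a median of 76% over 3 sites against 69.5% over 4 others. The sites were not the same either. The 3 were those of Ala(AGC), Ala(TGC) and Thr(AGT), and the 4 those of Asp(GTC), Gln(TTG), Glu(TTC) and Gly(GCC). The 2 species were thus not compared on like sites. Over all nuclear positions 39 of the 43 A. thaliana values, 90.7%, were at 20% or more, among them all 5 of the alanine and threonine tRNAs.

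**Figure D2:**
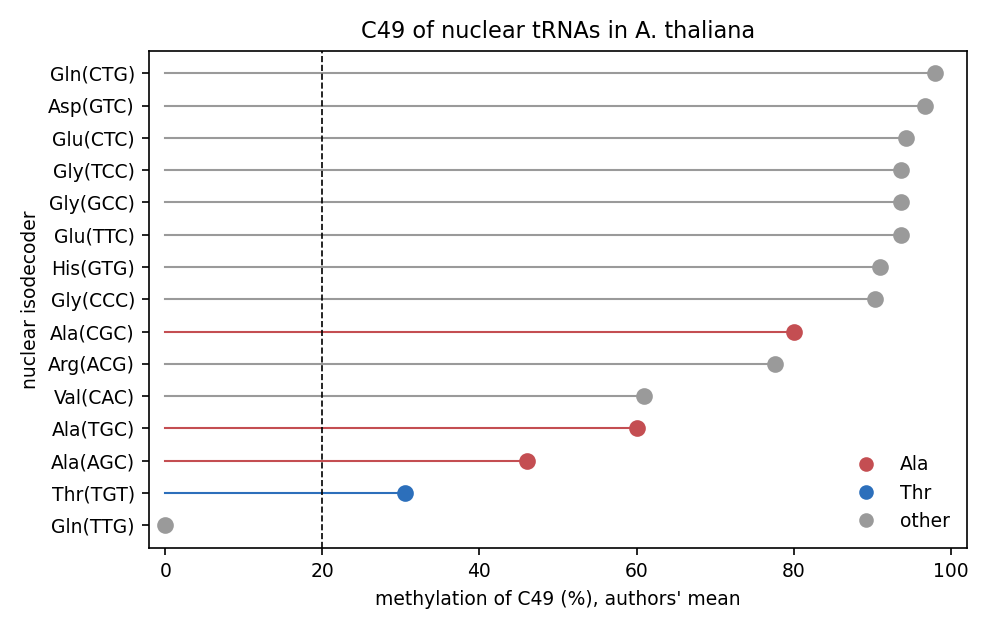
Methylation of C49 in percent (horizontal axis) in the 15 nuclear isodecoders of A. thaliana with a value (vertical axis, ordered), with alanine in red, threonine in blue, others in grey and the 20% threshold dashed. Thr(TGT), Ala(AGC) and Ala(TGC) stand just above Gln(TTG) at 0%, and 8 of the other tRNAs lie above 90%.

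The bases next to C49 also set these tRNAs apart in the A. thaliana consensus sequences. Position 50 was a guanine in all 4 alanine and threonine tRNAs with a C49 value, and among all 58 nuclear isodecoders these same 4 were the only ones with a cytosine at 49 followed by a guanine at 50. The 4 sites had a median of 53% and a highest value of 80%. The 7 sites with a cytosine at 50 ran from 61 to 98% with a median of 93.7%, and the 4 with an adenine or thymine at 50 ran from 0 to 91%. Since the same tRNAs make up that sequence class and the group of alanine and threonine sites, the base at 50 and the identity of the tRNA cannot be told apart here. All 4 members with C49 have a guanine at 65, so that the C49 to G65 pair can form. This does not set them apart, since all 23 nuclear isodecoders with a cytosine at 49 have a guanine at 65.

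The abundance of the tRNAs was listed for 1 A. thaliana RNA-seq library, in RPM (reads per 1000000), scaled by the authors to a total that is not named in the sources used here. The members are 71 to 74 bases long, so that RPM were compared without a correction for length. In whole seedlings, fewer cells that hold a tRNA and less of it per cell cannot be told apart. The 87 values above 0 were all whole numbers of reads, within 0.005 RPM, at 1 total of 2923785 reads, if the smallest value, 0.34 RPM, is 1 read. On this reading 579400 of those reads fell on the 100 consensus sequences, so that the total is larger than the reads listed for them. On that reading the intervals below are exact Poisson intervals of 95%. They cover counting error only and not the error between seedlings or between libraries.

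The 3 nuclear alanine tRNAs were listed at 0 RPM, although each had a methylation value. Ala(AGC), Ala(TGC) and Ala(CGC) had no read in this library, which allows up to 1.03 RPM each by a limit of 3 reads, and up to 1.26 RPM by the upper end of the two-sided interval used for the others. Thr(CGT)1 was listed at 0 as well. Of the threonine tRNAs, Thr(CGT) stood at 0.68 RPM (0.0828 to 2.47, 2 reads), Thr(AGT) at 3.42 RPM (1.64 to 6.29, 10 reads) and the nuclear Thr(TGT) at 6.16 RPM (3.65 to 9.73, 18 reads). The intervals of neighbours in this order overlap, while those of Thr(CGT) and Thr(TGT) do not. All nuclear members together had 30 reads, or 0.801% of the RPM of nuclear isodecoders.

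The chloroplast members all had reads, and stood low among the tRNAs of that genome. Chloroplast Ala(TGC), an isodecoder of plastid translation, stood at 6.16 RPM (3.65 to 9.73, 18 reads), Thr(GGT) at 9.23 RPM (6.09 to 13.4, 27 reads) and Thr(TGT) at 18.13 RPM (13.6 to 23.7, 53 reads). They ranked 20, 19 and 18 from the highest of 24 chloroplast isodecoders, whose median was 77.6 RPM. Together they held 0.0189% of the chloroplast RPM. The interval of the chloroplast Thr(TGT) lay above that of its nuclear namesake, and the alanine tRNA with a TGC anticodon had 18 reads for the chloroplast sequence and none for the nuclear one.

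**Figure D3:**
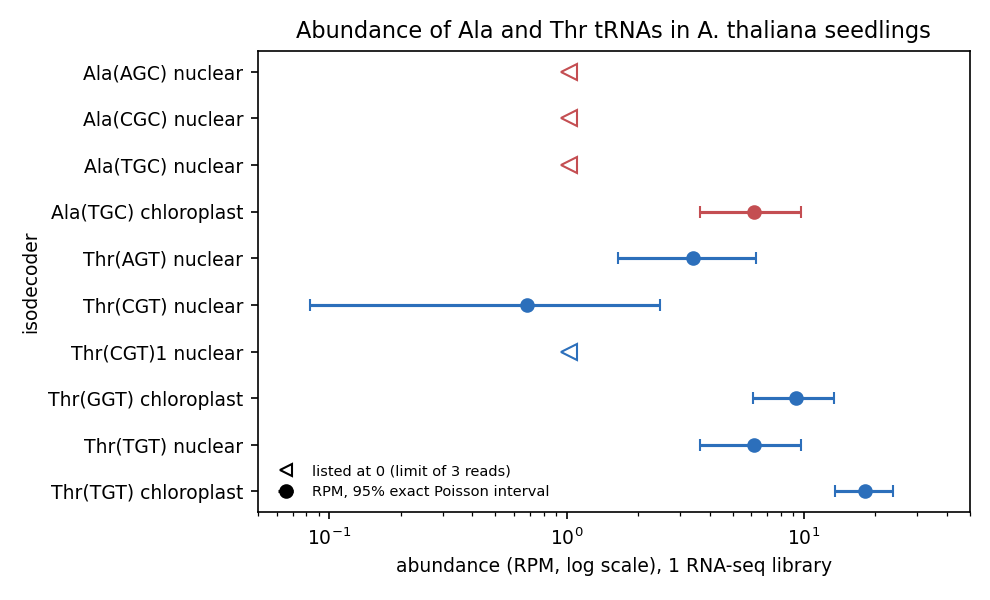
Abundance in RPM on a log axis (horizontal) of the 10 alanine (red) and threonine (blue) isodecoders in the A. thaliana RNA-seq library (vertical axis), with exact Poisson intervals of 95% as bars. Open triangles stand at 1.03 RPM, the limit of 3 reads, and not an interval of 95%, for the 4 isodecoders listed at 0, and the highest point is chloroplast Thr(TGT) at 18.13 RPM.

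The share of members at 0 was read against the whole list. Of the 10 members 4 were listed at 0 RPM, against 13.0% of all 100 isodecoders, and of the 7 nuclear members 4, against 19.0% of the 58 nuclear isodecoders. The nuclear alanine families were large. Ala(AGC) stood for 16 genes, Ala(TGC) for 10 and Ala(CGC) for 7, in all 33 of 612 nuclear genes or 5.39%. Of the 37 nuclear isodecoders with 7 genes or more, 34 had at least 1 read, and the 3 at 0 were the alanine tRNAs. The 7 other nuclear isodecoders at 0 had at most 5 genes. Of the 11 nuclear isodecoders at 0, the 3 alanine tRNAs were the ones with a methylation percent in A. thaliana, against 21 of the 47 with at least 1 read. Thr(AGT), with 10 reads, had no percent in A. thaliana. RNA-seq and RBS-seq were separate libraries aligned to different references, so that a 0 in one sets no bound on the depth of the other.

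Per gene, the nuclear threonine tRNAs stood at 0.77 RPM in Thr(TGT) with 8 genes, 0.342 RPM in Thr(AGT) with 10 genes and 0.136 RPM in Thr(CGT) with 5 genes. The median over the 58 nuclear isodecoders was 0.289 RPM per gene. Over the 33 nuclear alanine genes, 3 reads would amount to 0.0311 RPM per gene.

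**Figure D4:**
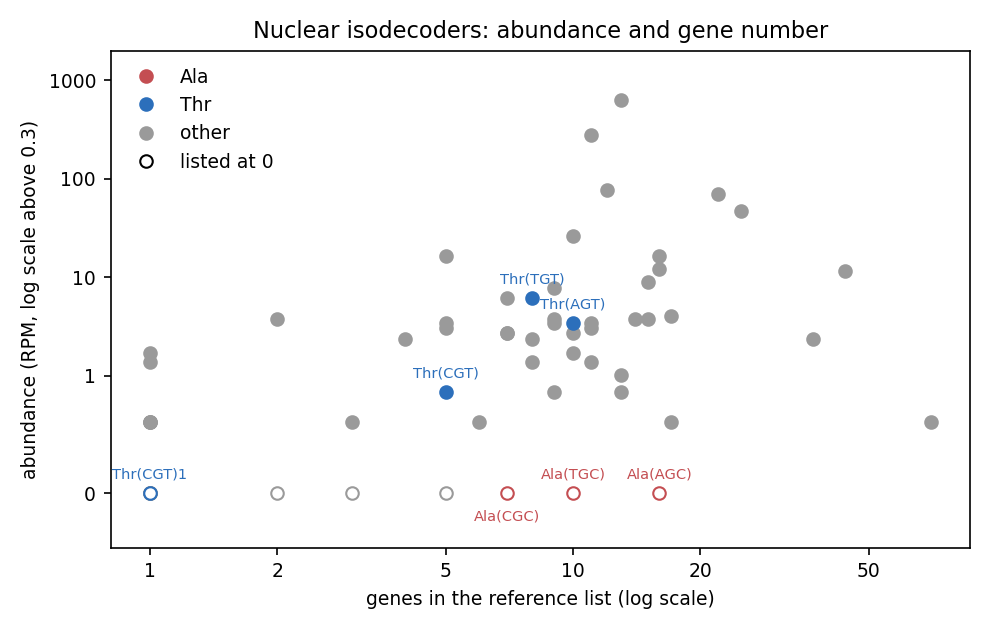
Abundance in RPM (vertical axis, log scale above 0.3) against the number of genes in the reference list (horizontal log axis) for the 58 nuclear isodecoders, with alanine in red, threonine in blue, others in grey and open symbols for those listed at 0. Ala(CGC), Ala(TGC) and Ala(AGC) are the open symbols with 7, 10 and 16 genes.

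The alanine tRNAs resemble each other closely, and bisulfite removes part of what tells them apart. The sequences of Ala(CGC) and Ala(TGC) differ at 5 of 73 bases, and after every cytosine is turned into thymine they differ at 2. Ala(AGC) differs from Ala(CGC) at 7 bases before and 5 after conversion, and from Ala(TGC) at 5 before and 4 after. The 3 converted sequences are shown because the methylation values were read from alignments to converted references. Capitals mark the places that still differ between any of them, which from the first base are 5, 15, 34, 54 and 60.
Ala(AGC) converted: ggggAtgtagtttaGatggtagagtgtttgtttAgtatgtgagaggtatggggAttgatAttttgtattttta
Ala(CGC) converted: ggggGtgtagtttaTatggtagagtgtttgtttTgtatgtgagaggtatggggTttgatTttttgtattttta
Ala(TGC) converted: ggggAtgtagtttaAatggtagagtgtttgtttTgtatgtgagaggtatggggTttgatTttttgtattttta

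After conversion Ala(CGC) and Ala(TGC) differ at places 5 and 15 alone. Written as the base of Ala(CGC), the place from the first base and the base of Ala(TGC), the differences G5A and T15A remained, and C34T in the anticodon, T60C in the T loop and C68T in the acceptor stem were lost. The last 58 bases of Ala(CGC) and Ala(TGC) are then identical, C49 included, and place 15 lies 34 bases before C49. A read that begins after place 15 fits both references equally, and how the authors placed such reads is not given in the sources used here. The values of 80% and 60% at C49 of this pair are therefore uncertain in their assignment. Against Ala(CGC), and with the base of Ala(AGC) first, Ala(AGC) kept A5G, G15T, A34C, A54T and A60T and lost T47C and T68C, so that 2 of the differences that remained lie after C49. At position 54, the first base of the T loop, 91 of the 100 sequences have a thymine, and Ala(AGC) is 1 of 4 with an adenine.

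Among 744 pairs of isodecoders of equal length the fewest differences after conversion were 2, reached by 3 pairs, and 12 pairs differed at 5 bases or fewer, 3 of them the alanine pairs. The median pair differed at 37 bases before and 29 after conversion. The threonine tRNAs stood at least 14 edits from every other sequence after conversion. Edits allow for gaps and are another measure than the differences above. The same minimum is not given here for the other isodecoders.

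**Figure D5:**
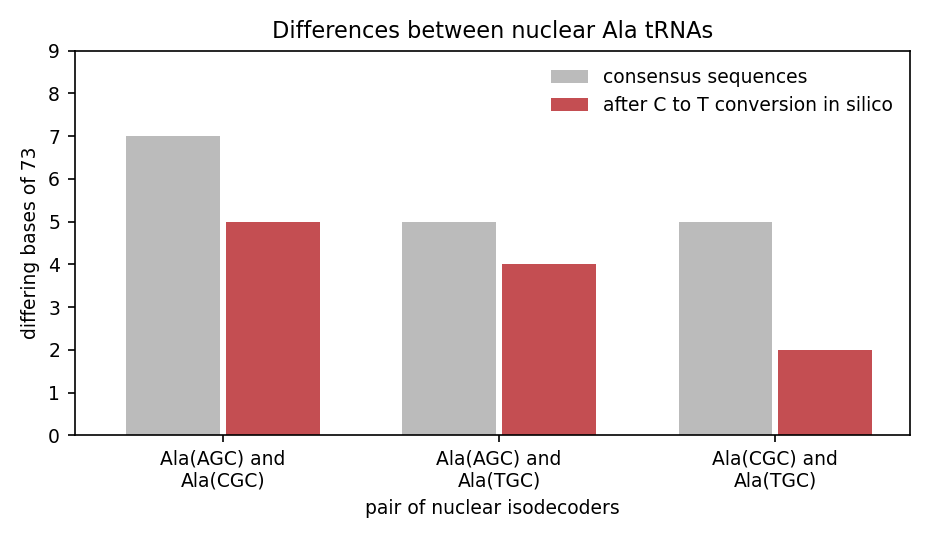
Number of differing bases of 73 (vertical axis) between each pair of nuclear alanine isodecoders (horizontal axis), in the consensus sequences (grey) and after in silico conversion of C to T (red). The pair of Ala(CGC) and Ala(TGC) falls from 5 to 2, and the pairs with Ala(AGC) from 7 to 5 and from 5 to 4.

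The 10 isodecoders stood for 61 of the 687 genes in the reference list, 57 nuclear and 4 chloroplast, with TAIR10 coordinates. All 57 nuclear genes were found in the RefSeq gene table as tRNA genes of the same amino acid and position, and the 4 chloroplast genes were not matched there by identifier. The 33 alanine genes and 24 threonine genes lay on all 5 chromosomes. Thr(AGT) had 6 of its 10 genes on chromosome 4 and Ala(AGC) 6 of its 16 on chromosome 5, while Ala(TGC) had none on chromosomes 4 and 5. The single gene of Thr(CGT)1 is AT2G34985 on chromosome 2, bases 14750064 to 14750134. Its sequence length of 71 bases and its unpaired first acceptor bases, a cytosine at 1 and at 72, set it apart from the other threonine tRNAs.

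Within 10 kb of each other lay 6 pairs of member genes. The closest were AT3G63003 and AT3G63006 of Ala(TGC) on chromosome 3 (23285593 to 23285665 and 23285754 to 23285826), 88 bases apart. AT1G13840 and AT1G13850, also of Ala(TGC), lay 1023 bases apart on chromosome 1, and AT5G60963 of Ala(CGC) and AT5G60966 of Thr(CGT) lay 1418 bases apart on chromosome 5. The pairs of AT2G34950 and AT2G34985 of threonine, AT3G28685 and AT3G28695 of Ala(AGC), and AT2G03660 and AT2G03700 of Thr(CGT) were 6515, 6889 and 9334 bases apart. In all 24.6% of the 57 nuclear genes had another tRNA gene within 10 kb, against 35.9% of the 555 other nuclear genes. AT4G12065 of Ala(AGC), on chromosome 4 from 7232799 to 7232871, and AT4G20115 of Thr(AGT), from 10878724 to 10878797, overlapped a protein-coding gene in the RefSeq table. The other 55 nuclear genes overlapped none there.

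The genes had the length of their consensus in 58 of 61 cases. AT3G59415 of Thr(TGT), on chromosome 3 from 21959510 to 21959580, was 1 base shorter. The chloroplast Ala(TGC) genes ATCG00940 (103665 to 104538) and ATCG01190 (134111 to 134984) spanned 874 bases, 801 more than the mature tRNA, and the plastid alanine tRNA gene is known to hold an intron.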

How the data were processed

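Members and lists were chosen with earlier results of these data known. The authors trimmed and aligned reads in CLC Genomics Workbench. For A. thaliana, RNA-seq was aligned to the 100 consensus sequences and RBS-seq to the same sequences converted in silico. For the other species, tRNA sequences of the nearest relative in the PlantRNA Database were used as well. Percent methylation was deposited by the authors as cytosines over cytosines and thymines, with at least 5 reads per position and a threshold of 20%. The A. thaliana values are the authors' means over replicates, of a number not given for each value. RPM was deposited by the authors for 1 library, rounded to 2 decimals. The reference list was deposited with TAIR10 coordinates.

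Cells not determined, ambiguous or with another base were kept out of all numbers. Positions from 44 on were counted back from the last base as 73. No count test was run, since there is 1 library. Differences between sequences were counted place by place at equal length, otherwise as edit distance. Every member was named, and other tRNAs only at the ends of the order or beside a member, or where they shared a feature. Python 3.11.15, SciPy 1.17.1, edlib 1.3.9.post1 and Matplotlib 3.10.9 were used. Functions were tested on simulated data.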

Additional observations from a re-analysis of the deposited data

How the results depend on the processing

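The number of alanine and threonine sites called methylated was the same in all species at thresholds of 10 and 30%. Those 2 settings could not change it, since the lowest of the 15 values was 30.5%. In A. thaliana it fell from 5 to 4 at 40% and to 3 at 50%, and in T. durum from 2 to 1 at 50%. The median difference of these C49 sites from other nuclear C49 in A. thaliana, -40.7 points, was -26.8 with means, -38 with sites of every origin and -24.7 over tRNAs with 1 methylated site (4 against 3, chosen after seeing the data). Leaving out each member in turn gave -47.7 to -33.7. The range over species of C49 of Thr(TGT), 54.5 points, was 19.5 to 54.5 with each species left out in turn, lowest without N. oculata, and that of C48 of Thr(CGT), 15 points, was 8 to 15, lowest without G. biloba. The median excess of C. taxifolia at C49 of the alanine tRNAs, 25 points, became 23 when the number in the ambiguous cell was used. That median hides Ala(CGC), whose ambiguous number lay below its 80% in A. thaliana, the opposite direction from Ala(AGC) and Ala(TGC). The nuclear members held 0.00518% of all tRNA RPM, 0.0195% without the 2 most abundant sequences and 0.801% of nuclear RPM. The chloroplast members held 0.0169%, 0.0638% without those 2 sequences and 0.0189% of chloroplast RPM.

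No paired analysis was possible because the methylation table holds 1 value per species and the abundances come from 1 library, so that replicates could not be left out either. In A. thaliana 4 of the 5 member values were whole numbers, which a mean of 3 whole percentages can give. That of Thr(TGT) was 30.5%, which such a mean cannot give. Of the 42 values at other listed sites, 2 also had a fraction that such a mean cannot give. The number of libraries behind each value is not given in the sources used here.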
